A study of Drosophila melanogaster with 3 samples.

Results

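The 7 genes described here are MFS14, its neighbour lncRNA:CR44468, Ugalt, Cftr, Orct, Orct2 and Prestin, 7 of the 18164 annotated genes on the 6 chromosome arms. Apart from lncRNA:CR44468, which gives a long noncoding RNA, they encode proteins that carry small molecules or ions across membranes. They were selected on the signal and rank of regions bound by the clockwork orange protein (cwo) at or near them, so these values are given as description and carry no test. A region counted as in reach of a gene when its summit lay in the gene body or within 5000 bp of either end, and 24 of the 7366 summits of the authors' optimal list were in reach of the 7 genes. The series is a chromatin immunoprecipitation and sequencing (ChIP-seq) study of Drosophila melanogaster with 3 biological replicates of a single group. Each replicate was a pool of whole embryos of both sexes, aged 6 to 24 h by the source name, of a transgenic line that stably expresses cwo fused to GFP at its C-terminus. Chromatin was sheared by sonication to a size range of 200 to 800 and precipitated with an antibody against GFP. No untagged or mutant embryos are compared here, the fusion protein is what was precipitated, and whole embryos do not show which cells a region was bound in. The lists hold no expression values, so tissue markers could not be checked, and what binding does to the level of a gene was not measured.

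Cwo is a repressor of the basic helix-loop-helix Orange family that acts in the fly's circadian clock, where it binds the E-box CACGTG at genes that the activators Clock and cycle switch on. Membrane transporters fall into large families that share a fold. Major facilitator proteins such as MFS14, Orct and Orct2 move small solutes by rocking between an outward and an inward state. Orct and Orct2 belong to the SLC22 family of organic ion transporters. ABC proteins of the Cftr family use ATP, SLC26 proteins such as Prestin exchange anions, and Ugalt carries UDP-galactose into the Golgi for the building of sugar chains.

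The sequences at the strongest region of Cftr, Orct2 and Ugalt, at the strongest region nearest to Orct and at the strongest region of Prestin are shown because they differ in the E-box letters they hold. Each is read 5′ to 3′ on the strand of its gene from the RefSeq Release 6 genome (dm6). Capitals mark CACGTG at Cftr and Orct2, a hexamer that differs from it by a single base at Orct and Prestin, and the looser E-box form CATATG at Ugalt. The Prestin hexamer is CACGAG on the opposite strand. The Cftr window is 3R:24543772-24543801 (minus strand), the Orct2 window 3R:24273141-24273170 (plus strand), the Orct window 3R:24275649-24275678 (plus strand), the Prestin window 3L:17904218-17904247 (minus strand) and the Ugalt window X:2703853-2703990 (minus strand), which ends at the base before the outermost Ugalt start.
Cftr: gtactatttctgCACGTGctgctccgttgc
Orct2: atatttgggcaaCACGTGttggccgataat
Orct: agccccaaaaaCACGAGactctcatttgaa
Prestin: cgaggttgatggaagtgctgCTCGTGttgc
Ugalt: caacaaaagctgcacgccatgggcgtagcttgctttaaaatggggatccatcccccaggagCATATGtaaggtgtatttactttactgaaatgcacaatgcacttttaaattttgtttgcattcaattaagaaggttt

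Every one of the 7 genes had at least 1 optimal summit in reach, and so did all 6 of the protein-coding ones, where 54.3% of all 13945 protein-coding genes had one. A summit of rank 1 to 100, rank 1 being the strongest signal of the list, was in reach of 5 of the 6, Prestin being the exception, and of 1.68% of protein-coding genes. Both counts follow from how the genes were chosen and are not read as a result. Of the 24 summits 7 ranked 1 to 100 and 11 ranked 1 to 300, and the weakest 4 ranked 4672 to 6233. The number in reach ranged from 1 at Cftr and at Ugalt to 14 at MFS14, with 2 at Prestin, 4 shared by Orct and Orct2 and 13 at lncRNA:CR44468, 11 of them shared with MFS14. The median over protein-coding genes with any was 2. The label of strongly bound transporter genes therefore holds for single strong promoter regions at Cftr, Ugalt and Orct2 and for a group of regions at MFS14. Orct had a region of rank 1 to 100 in reach only through that of Orct2, its own best promoter rank being 318. The label does not hold for Prestin.

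**Figure D1:**
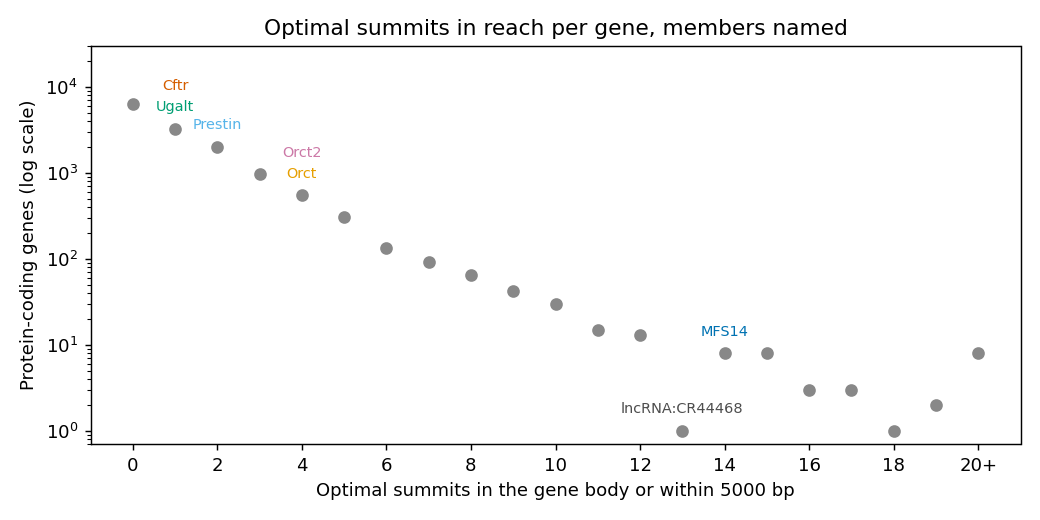
Number of protein-coding genes (log axis) against the number of optimal summits in the gene body or within 5000 bp, one grey point per count, with counts of 20 or more pooled. The members are written above the count they have: Cftr and Ugalt at 1, Prestin at 2, Orct and Orct2 at 4, lncRNA:CR44468, itself not among the genes counted, at 13, and MFS14 at 14, a number that 33 protein-coding genes reached or passed.

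The signal is the peak caller's own score, on a scale that the labels and lists do not state, and its median was 33.0, 44.2 and 65.2 in the lists of replicates 1, 2 and 3. It is therefore compared only within a list, and replicates are compared by rank among the 30000 regions that each list holds. The read depth behind the lists is unknown. Of the 24 summits, 22 lay inside 1 of the strongest 7366 regions of all 3 replicates, against 71.9% of all optimal summits. A replicate summit lay within 100 bp in all 3 replicates for 21 of the 24, against 89.1% of all. The median shift between an optimal and a replicate summit was 9 bp over the 24 and 11 bp over the whole list. The optimal list was made from these replicates, so both counts describe it and are no separate support.

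MFS14 (FBgn0010651) is a major facilitator gene on the minus strand at 2R:18796975-18803727, with 3 annotated transcripts and start sites at 18803727 and 18802405. The noncoding gene lncRNA:CR44468 (FBgn0265661, 2R:18805595-18807195, plus strand) starts 1868 bp from the outer MFS14 start and runs away from it. Together the pair had 16 optimal summits in reach. Part of them lie in 2 wide bound loci, 1 over the MFS14 start sites and 1 over the lncRNA gene. The others lie in further regions around these.

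The strongest region of the locus, and of all 7 genes, had its summit at 2R:18806375, in an exon of lncRNA:CR44468 and 780 bp downstream of its start. Its signal in the optimal list was 15887, rank 5. In replicates 1, 2 and 3 its signals were 3870, 4768 and 7402 and its ranks 4, 4 and 5, a mean of 4.33 ± 0.577 (SD, n = 3). The region therefore stood among the 5 strongest of every list. A second summit 206 bp away in the same exon, at 2R:18806581, ranked 19, and its replicate ranks were 18, 18 and 28. Both summits lay inside a merged interval of 1992 bp, a width that 7 of the 6543 merged loci of the list reached or passed, the median being 480 bp. The same interval held summits at 2R:18807429 (rank 284) and 2R:18807636 (rank 3175), downstream of the gene. Replicate 3 had a summit within 100 bp of each, at ranks 220 and 2722, and replicates 1 and 2 had none, although strong intervals of both covered these positions.

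At MFS14 itself the strongest summit was at 2R:18802525, in the 5′ UTR and 120 bp upstream of the inner start. Its signal was 6543.5, rank 23, with signals of 1535, 1977 and 3148 and ranks of 21, 24 and 21 in replicates 1, 2 and 3, a mean of 22.0 ± 1.73 (SD, n = 3). At the outer start, summits 127 bp inside the gene and 72 bp upstream of it ranked 134 and 164. They ranked 263, 113 and 107 and 378, 134 and 122 in the replicates. Both were lower in replicate 1 than in the other 2 replicates. These 3 summits belong to an interval of 2369 bp (2R:18802020-18804388) that holds 5 summits, the only merged locus of the list with 5 or more. Only 2 loci, this interval included, were at least that wide. The remaining summits of the interval ranked 669 and 3428. The last of these, 272 bp upstream of the outer start, had replicate ranks of 1687, 10751 and 14677, so it was far down the lists of replicates 2 and 3.

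The introns of MFS14 held further strong regions. The summit at 2R:18800655 ranked 94, with replicate ranks of 108, 94 and 85, and that at 2R:18799689 ranked 263, with 278, 230 and 248. Ranks in all 3 replicates were close to the optimal rank for both. A weaker intron summit at 2R:18800919 ranked 1418, and its replicate ranks of 7815, 1131 and 1220 were apart in replicate 1. The outermost regions in reach were nearer to the start sites of other genes. Those at ranks 3573 and 6233 lay 49 and 248 bp upstream of MFS15, the next gene, 297 bp from MFS14. Those at ranks 4672 and 5400 lay in introns of CG15096, beyond the lncRNA gene. MFS15 and CG15096 encode proteins with 50.2% and 50.3% identity to MFS14, so the bound group of regions lies in a run of related transporter genes. In the pooled list before the IDR step there was no further summit in reach of MFS14.

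**Figure D2:**
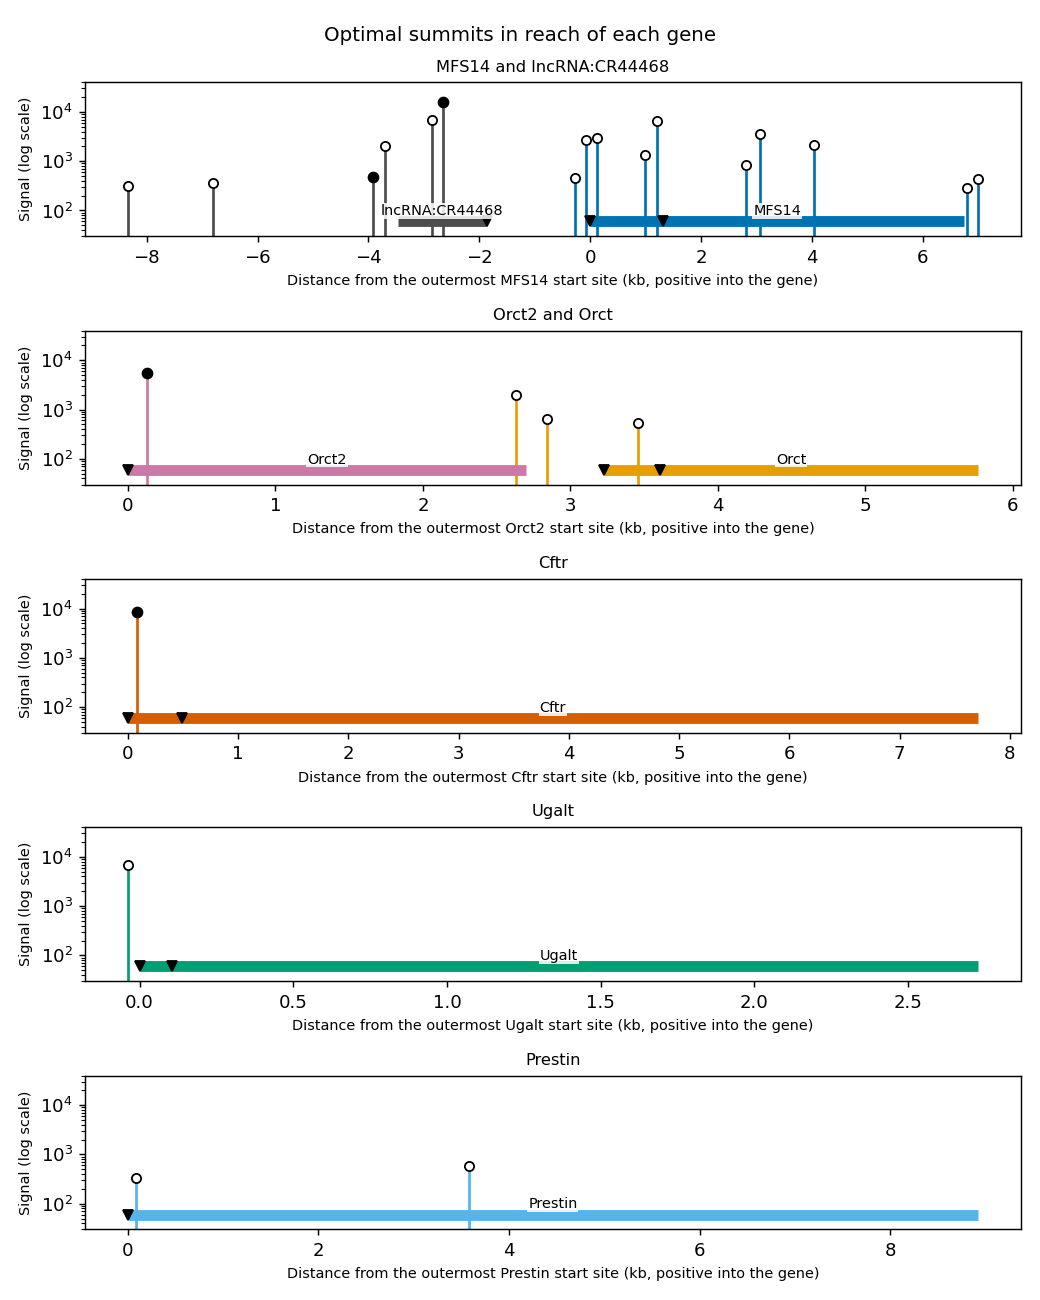
Signal of each optimal summit in reach (log axis) against its distance in kb from the outermost start of the first gene named in each panel, positive into that gene. Thick lines are gene bodies, black triangles annotated start sites, stem colours give the nearest member, and filled circles mark summits with CACGTG within 100 bp. MFS14 and lncRNA:CR44468 carry 16 summits, while Cftr and Ugalt have a single strong one at the start site.

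Cftr (FBgn0039207, 3R:24536204-24543914, minus strand) is named for the human chloride channel of the ABC family that is defective in cystic fibrosis. It had a single optimal summit, at 3R:24543832 in the 5′ UTR, 82 bp downstream of the outer start. The signal was 8427.7, rank 12, and in replicates 1, 2 and 3 the signals were 1941, 2541 and 3933 and the ranks 13, 12 and 15, a mean of 13.3 ± 1.53 (SD, n = 3). The replicates thus placed it in almost the same position. The bound interval was 1290 bp wide, a width reached by 28 merged loci. The gene Esyt2 starts 805 bp away on the other strand, so the region lies beside a pair of divergent genes and the list alone does not assign it to either. The pooled list had 3 weaker summits in reach that did not enter the optimal list, the best at pooled rank 8844.

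Ugalt (FBgn0024994, X:2701124-2703852, minus strand) encodes the Golgi transporter for UDP-galactose. Its single optimal summit, at X:2703890, lay 38 bp upstream of the outer start. The signal was 6778.4, rank 21, and in replicates 1, 2 and 3 the signals were 1799, 1964 and 3064 and the ranks 16, 25 and 24, a mean of 21.7 ± 4.93 (SD, n = 3). All 3 replicates placed it among their 25 strongest regions. The interval was 454 bp wide, a little narrower than the median. The translation factor gene eIF2Bbeta starts 719 bp from the outer Ugalt start on the other strand, so here too the list alone does not assign the region to either gene. The next optimal summit lay 16008 bp from the gene, with rank 2305. The annotated body of the circadian gene per ends 8344 bp from Ugalt, and its start lies 18165 bp from that of Ugalt.

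Orct2 (FBgn0086365, 3R:24273029-24275728) and Orct (FBgn0019952, 3R:24276260-24278792) lie in tandem on the plus strand, 532 bp apart. Their proteins of 567 and 548 residues were 72.7% identical, and all 4 summits were in reach of both. The strongest, at 3R:24273160, lay in the 5′ UTR of Orct2, 131 bp downstream of its start, with a signal of 5472.6 and rank 32. In replicates 1, 2 and 3 its signals were 1133, 1741 and 2736 and its ranks 42, 29 and 29, a mean of 33.3 ± 7.51 (SD, n = 3). It was strong in every replicate, a little lower in replicate 1. It was in reach of Orct only through the 5000 bp margin, 3100 bp from that gene.

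The best region within 1000 bp of an Orct start ranked 318, so the promoters of this tandem pair differed in rank in the optimal list. That summit, at 3R:24275663, lay 597 bp upstream of Orct, inside the 3′ UTR of Orct2, with a signal of 1954.9. Its replicate ranks were 445, 369 and 259, a mean of 358 ± 93.5 (SD, n = 3), and each was lower in its list than the rank of the Orct2 region there. The summits at 3R:24275867 and 3R:24276487 ranked 1996 and 2710. The former ranked 8894, 1746 and 1514 in the replicates, and the latter had no summit within 100 bp in replicate 1 and ranked 3407 and 2668 in replicates 2 and 3. Replicate 1 thus gave a much lower rank at the former. All 24 summits had a replicate summit in all 3 replicates once the distance was widened to 200 bp, so a missing summit is defined by the limit of 100 bp. At lncRNA:CR44468 the summits concerned lie 207 bp apart, so at 200 bp the same replicate summit can count for both. The wider limit therefore cannot show whether replicates 1 and 2 hold both of them. The myosin gene jar lies 1796 bp from Orct2 on its upstream side, on the other strand.

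Prestin (FBgn0036770, 3L:17898889-17907812, minus strand) encodes an SLC26 anion transporter and is named for the motor protein of mammalian outer hair cells. Its regions were not among the strong ones. The better summit, at 3L:17904232 in an intron 3580 bp downstream of the start, had a signal of 578.9 and rank 2383. Its replicate ranks were 3017, 2707 and 2083, a mean of 2602 ± 476 (SD, n = 3). The promoter summit, at 3L:17907731 in the 5′ UTR and 81 bp downstream of the start, had a signal of 326.69 and rank 5234. Its replicate ranks were 6902, 4719 and 6731, a mean of 6117 ± 1210 (SD, n = 3). The smallest and the median signal of the optimal list were 248 and 427, so the promoter summit was weaker than the median and the intron summit stronger. The gene Wdr92 starts 331 bp from the Prestin start on the other strand. The pooled list held 6 further summits in reach below the optimal list, more than at any other of the 7 genes.

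**Figure D3:**
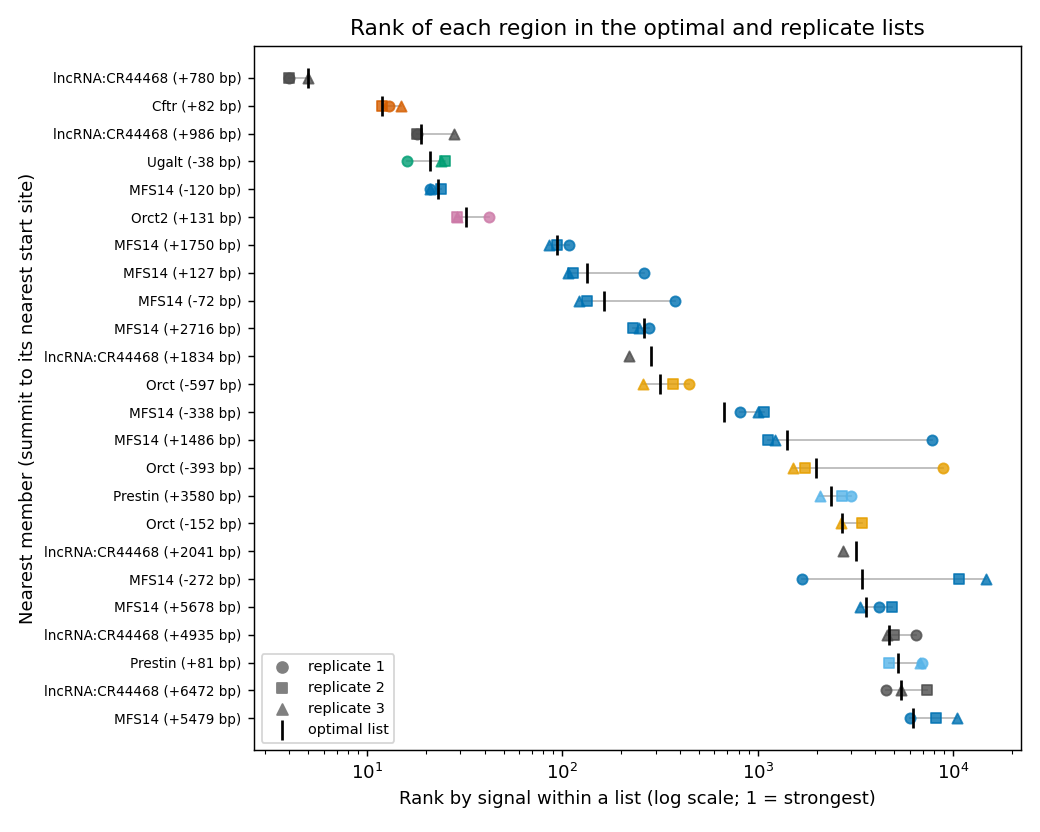
Rank by signal (log axis, 1 is the strongest) of each of the 24 regions in the optimal list (black bar) and in each replicate list (circle, square and triangle for replicates 1, 2 and 3), ordered by optimal rank and labelled by the nearest member and the distance of the summit to its nearest start. A replicate without a summit within 100 bp has no symbol. The 7 regions of rank 1 to 100 have replicate ranks of 4 to 108, and the widest spread is at the MFS14 region 272 bp upstream, from 1687 to 14677.

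The margin of 5000 bp decided some of this. At lncRNA:CR44468 the farthest summit counted lay 4940 bp from the gene, rank 94, and the nearest left out lay 5906 bp away, rank 263. At MFS14 these distances were 3909 bp (rank 3175) and 6803 bp (rank 4672), and for Orct 3100 bp (rank 32) and 5127 bp (rank 4030). For Prestin both counted summits were inside the gene, and the nearest left out lay 5529 bp away, rank 4585.

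Many of these summits came in close pairs. In 8 of the 24 a stronger summit lay within 400 bp, as it did for 843 of the 7366 optimal summits, and the spacing of the 8 was 199 to 264 bp. In each case the weaker summit was at the higher coordinate. How often this held over the whole list was not counted, so it is not read as a trait of these genes. Of these 8 weaker summits, 6 were in reach of both MFS14 and lncRNA:CR44468 through the 3 intervals described above with several summits, so the number of summits there is not a number of separate sites. Merged by overlap, the 24 summits formed 13 loci.

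The E-box CACGTG, searched on both strands within 100 bp of the summit, was found at 4 of the 24 summits, against 13.5% of all optimal summits. It was at 3 of the 7 summits that ranked 1 to 100, against 53 of the 100 strongest regions of the list. The strongest summit of lncRNA:CR44468 had the centre of the hexamer 9.5 bp away, that of Orct2 4.5 bp away and that of Cftr 45.5 bp away. The median distance over optimal summits with the hexamer within 100 bp was 28.5 bp. The fourth was the lncRNA:CR44468 summit of rank 3175, with the hexamer 11.5 bp away. With its neighbouring bases, the Orct2 site printed above reads ACACGTGT, a form taken by 72 of the 1027 CACGTG sites near optimal summits (7.01%). The Cftr site reads GCACGTGC, a form of 141 sites (13.7%). Each form was counted together with its reading on the opposite strand. Counted in this way, the form with the most sites was ACACGTGC, with 269 (26.2%). The Orct2 and Cftr forms read the same on both strands, while ACACGTGC does not and so pools different readings. These counts therefore do not rank the forms as read on a given strand.

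Some strong regions without CACGTG held a related hexamer near the summit, and others held none of those searched. At the MFS14 summit of rank 23 no CACGTG lay within 500 bp, and CACGCG, the class C site bound by Hes-type repressors, lay 20.5 and 32.5 bp away. CACGCG was also 6.5 bp from the lncRNA:CR44468 summit of rank 19. These were the 2 summits of the 24 with that hexamer, which 8% of optimal summits and 17 of the 100 strongest had. CACGTT was near 5 of the 24 summits, among them the MFS14 intron summit of rank 94 at a distance of 1.5 bp, and near 10.5% of optimal summits. CACGAG was near 3 of the 24, against 6.45% of optimal summits. It lay 0.5 and 39.5 bp from the Orct summit of rank 318 and 7.5 bp from the Prestin intron summit, as printed above. None of the 4 hexamers lay within 500 bp of the Ugalt summit. Within 100 bp, none of them was found at 13 of the 24 summits described here, against 66.8% of all optimal summits. Of the 100 strongest regions of the list, 24 had none. The looser form CANNTG, which takes in CACGTG and CATATG, was in 65.3% of all windows, and its match at Ugalt, CATATG, lay 36.5 bp from the summit, its last base 72 bases upstream of the start. These are matches of letters and not measured sites.

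**Figure D4:**
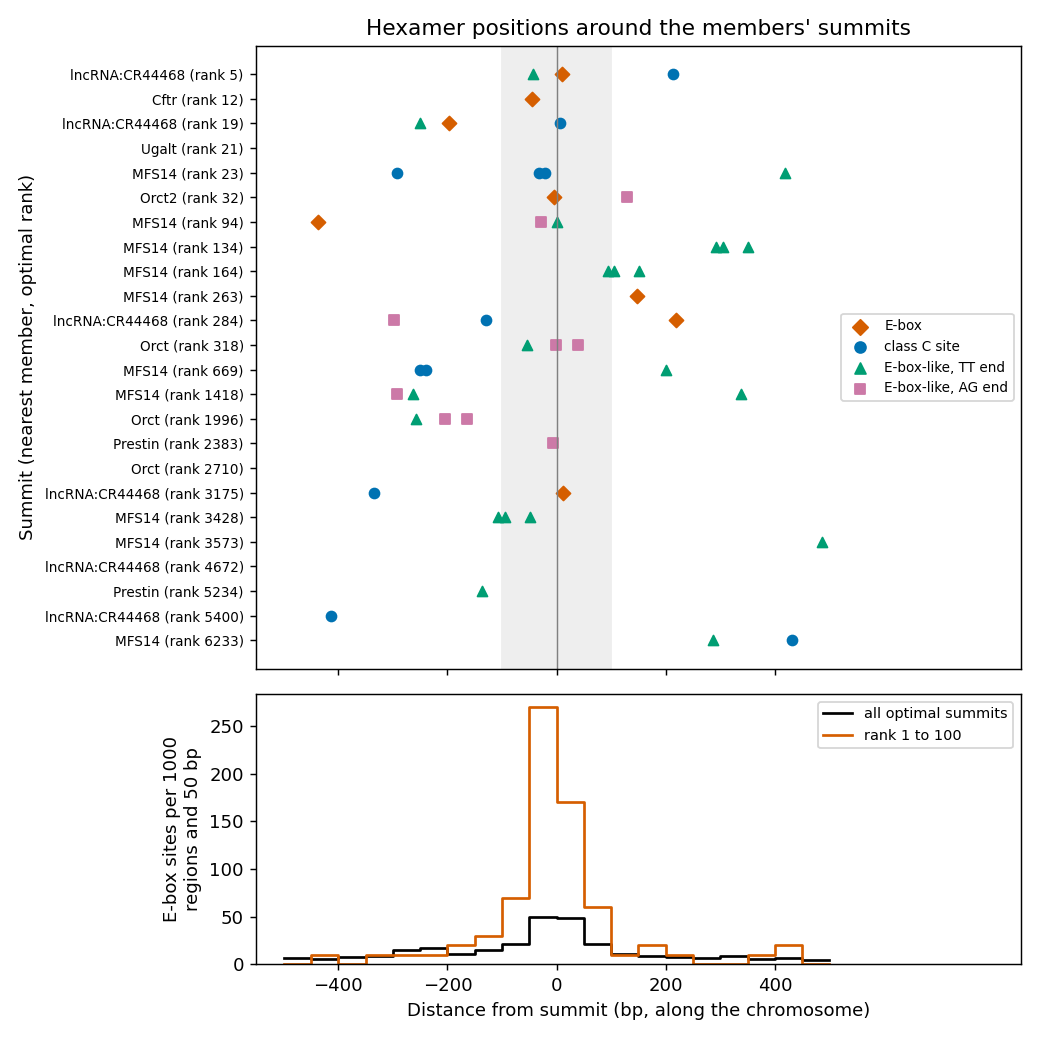
Upper panel: positions of CACGTG (diamonds, E-box), CACGCG (circles, class C site), CACGTT (triangles) and CACGAG (squares) within 500 bp of each of the 24 summits, ordered by rank, in bp along the chromosome, with the searched window of 100 bp either side shaded. Lower panel: CACGTG sites per 1000 regions in bins of 50 bp for all 7366 optimal summits (black) and the 100 strongest (orange). The E-box lies close to the summit at lncRNA:CR44468 (rank 5), Cftr and Orct2, and Ugalt has no symbol.

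Letters of other factors were also counted in the same windows, with overlap between motifs allowed. GAGAGA, the repeat bound by GAGA factor, was near 7 of the 24 summits and 4 of the 7 that ranked 1 to 100, against 12.5% of optimal summits and 14 of the 100 strongest. The 4 were the MFS14 summit of rank 23, both strong lncRNA:CR44468 summits and that of Orct2. TGATAA, which contains the core bound by GATA factors, was near 9 of the 24 and 20.8% of all. TATCGATA, an element of housekeeping promoters, was near 0 of the 24 and 1.74% of all. The GC content of the windows ranged from 27.4% at the MFS14 summit 72 bp upstream of the outer start to 56.2% at the lncRNA:CR44468 summit of rank 19, and the median of all optimal windows was 38.8%. How far base composition sets these matches was not tested.

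Genes related to the members by protein sequence were examined next, to place the members within their families. Proteins of at least 30% identity over at least 70% of a member gave 43 related genes, and 29 of them (67.4%) had an optimal summit in reach, against 54.3% of all protein-coding genes. For MFS14 this was 12 of 21 relatives, for Cftr 10 of 12, for Orct 7 of 10 and for Orct2 4 of 6, the relatives of Orct2 being among those of Orct. Ugalt and Prestin had no relative at this identity. Only 3 of the 43 had a region of rank 1 to 100, and for CG15096 and MFS15 these were regions already counted for lncRNA:CR44468 and MFS14. The third was Picot, a gene of an inorganic phosphate cotransporter, at rank 84. MFS10 had one of rank 130. Among Cftr relatives the best was rdog at rank 387, and among Orct and Orct2 relatives CG4630 at rank 556. The members were left out of the 43 and were chosen for high ranks, so the ranks of members and relatives are not compared.

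Families were also drawn by gene name. The ABCC-type, SLC22-type and numbered MFS lists repeat many of the relatives found by protein sequence, so their counts are no separate support. Genes on the SLC26-type and nucleotide sugar transporter lists were not among those relatives. Of 54 other genes on 5 lists, 39 (72.2%) had an optimal summit in reach. These were 9 of 11 ABCC-type genes with Sur, the sulfonylurea receptor gene, best at rank 498, and 12 of 19 SLC22-type genes with CG4630 best. Of SLC26-type genes other than Prestin 5 of 8 had one, the best being CG7912 at rank 339. All 7 other nucleotide sugar transporter genes had one, the best being frc at rank 558. Of the numbered MFS genes 6 of 9 had one, with MFS18 at rank 162 after MFS15 and MFS10. The counts carry no test, and neighbouring relatives can share a summit, as MFS1, CG30265, CG9825 and CG12490 did at rank 2740.

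**Figure D5:**
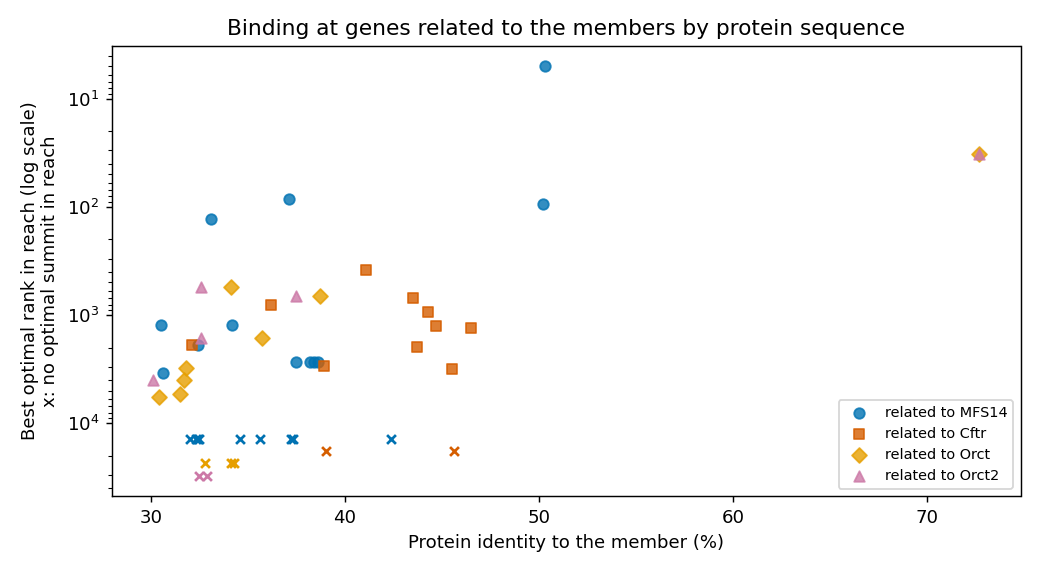
Best optimal rank in reach (log axis, strongest at the top) against protein identity to the member in percent, for genes related to MFS14 (circles), Cftr (squares), Orct (diamonds) and Orct2 (triangles). Crosses at the bottom are relatives with no optimal summit in reach, offset by member only to separate them. Orct and Orct2 appear as relatives of each other at 72.7%, and the points above 50% identity left of them are MFS15 and CG15096, which share regions with MFS14 and lncRNA:CR44468.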

How the data were processed

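Regions bound by GFP-tagged cwo were taken from the deposited dm6 lists of 3 biological replicates, of the pooled replicates and of the optimal set of the irreproducible discovery rate (IDR) procedure. Regions were called against a control alignment, per the deposited text of the libraries. Neither the peak caller nor the aligner, their versions or the IDR threshold used is given in the sources used here. A signal column deposited by the authors is a score per region on a scale that was not given, and read depth is unknown, so signal was ranked within each list and no interval for depth was given. The other deposited column used is the summit offset, in bp from the region start. The dm3 lists were not used here.

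Summits (region start plus offset, written 1-based) were assigned to genes of the Ensembl release 115 annotation, transposable elements left out, within 5000 bp. The 17671 genes matched to RefSeq had the same coordinates in 100% of cases. A replicate rank is that of its nearest summit within 100 bp. Hexamers were searched within 100 bp. Python 3.11.15, numpy 2.4.6, pandas 2.3.3, matplotlib 3.10.9 and blastp 2.17.0 (13945 translated proteins, E-value at most 1e-05) were used, and the scripts were tested on simulated data. The members, the family lists and the motifs were chosen with earlier results of these data known, and no statistical test was made. Named genes are the members, genes whose start lies nearer to a member's summit or whose body overlaps it, and the related genes with the strongest regions. Neighbouring genes on the other strand, per, and relatives below the strongest 5 were named after their values were seen. On the name lists, 15 symbols matched no annotated gene and were left out. Alternatives tried were margins of 2000 and 10000 bp, windows of 50 and 250 bp, the strongest 3683 regions of the list, the omission of the weaker summit of close pairs and the omission of each replicate. Also tried were replicate summits within 100 or 200 bp, any replicate region or the strongest 3683 of each replicate, and related genes by 40% identity or by name.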

Additional observations from a re-analysis of the deposited data

How the results depend on the processing

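All 7 genes kept an optimal summit in reach under every alternative tried. They were chosen for regions of this same list, so this is not read as support. Of all protein-coding genes, 69.3% had one with a margin of 10000 bp and 38.3% in the stronger part of the list. The share was 54.2% without the weaker summit of close pairs and 48% to 49% with a replicate left out. The number of summits in reach was 22 with a margin of 2000 bp, 29 with 10000 bp, 20 in the stronger part of the list and 16 without the weaker summit of close pairs. Leaving out a replicate, which only removes regions that the other 2 did not both hold and is no new call, gave 22 to 24. Of 40 alternative counts, 38 were within 1.5 times the main count and 2 were not. CACGTG was near 7 of 24 summits in a window of 250 bp, against 19.6% of all. There the lncRNA:CR44468 summits of rank 19 and 284 each share the hexamer of a neighbouring summit. At 40% identity 9 of 11 relatives had a summit. That list of relatives is shorter than the main one, and its share was 81.8% against 67.4%. For single genes 34 alternative best ranks were within 1 SD of the replicate ranks and 8 were not. MFS14 and lncRNA:CR44468 share their best region, as do Orct and Orct2, so many of these repeat. The SD was taken from the same replicate ranks. With a margin of 2000 bp the best rank in reach of MFS14 was 23 in place of 5 and that of Orct 318 in place of 32. With this margin 39.7% of all genes and 25 of 43 relatives had a summit. Of the 24 summits, 22 lay in strong regions of all 3 replicates. The count was 24 with a replicate summit within 200 bp and 21 within 100 bp (a distance chosen after the data were seen). It was 23 in any region of the replicates and 17 in the strongest 3683 regions of each replicate. No paired analysis was possible because there is 1 group and no test. Unknown read depth limits what can be said of weak regions: a region missing from a list was not detected there, and its absence is not shown.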
